A study of Mus musculus with 15 samples.

Results

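The genes described here are 31 genes that define or serve B cells, the antibody-producing lymphocytes, measured in whole blood of mice given ABBV-075. They were taken by symbol: a gene entered where at least 1 probe set of the array was annotated with its symbol alone, and 29 of the 31 did, through 57 probe sets, out of 18193 genes and 45101 probe sets on the array. Lyn and Cd38 had no such probe set and are not described further. A gene with several probe sets was read from the one with the highest mean over the 15 arrays, and all 29 lay above the floor of detection on at least 5 arrays and were among the 12499 genes tested.

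ABBV-075, or mivebresib, is a small molecule that blocks the bromodomains of the BET family, chromatin readers that sit on acetylated histones and help to recruit the transcription machinery. Blood was drawn 6 h after dosing from 5 mice given vehicle (a dose of 0 mg/kg), 5 given 1 mg/kg and 5 given 5 mg/kg, with 1 Affymetrix array of 3′-biased probe sets per mouse. The series looked for transcripts in blood that respond to the compound, and the strain, age and sex of the mice and the route of dosing are not given in the sources used here. In RNA from whole blood, fewer cells of a type and less RNA per cell cannot be told apart, so every value below is a share of the blood RNA and not a level per B cell.

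A B cell recognises antigen through surface immunoglobulin, whose heavy chain in naive cells is encoded by Ighm and whose signal is passed on by the paired chains Cd79a and Cd79b to the kinases Lyn, Blk and Btk and the adaptor Blnk. Co-receptors such as Cd22, Siglecg, Cd72, Cr2 and Fcmr raise or lower that signal, and the receptor for the survival factor BAFF, encoded by Tnfrsf13c, keeps mature cells alive. The programme is held by transcription factors, among them Pax5, Ebf1, Spib and Bach2, and by the octamer co-activator Pou2af1. Many of these genes are known to lie near large clusters of enhancers, and BET inhibitors are known for their effect on B cell tumours.

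The stretches of 250 bases before the transcription start are shown for Spib and Cd79a, whose levels were higher at 5 mg/kg than in vehicle by an unadjusted p, and for Bank1 and Fcmr, which were lower relative to the antigen receptor chains. They were read from RefSeq (GRCm38.p6), which held an entry for 24 of the 31 genes, and are written 5′ to 3′ in the direction of transcription. Spib lies on the minus strand (chr7:44532072-44532321), Cd79a on the plus strand (chr7:24897247-24897496), Bank1 on the minus strand (chr3:136326067-136326316) and Fcmr on the plus strand (chr1:130865527-130865776). Capitals mark a match, on either strand, to GAGGAA, the core that the related factors PU.1 and Spib bind.
Spib: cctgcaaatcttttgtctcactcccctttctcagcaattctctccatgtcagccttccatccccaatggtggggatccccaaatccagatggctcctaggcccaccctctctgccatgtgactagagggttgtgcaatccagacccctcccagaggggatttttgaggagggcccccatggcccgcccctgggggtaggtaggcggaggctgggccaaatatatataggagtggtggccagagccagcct
Cd79a: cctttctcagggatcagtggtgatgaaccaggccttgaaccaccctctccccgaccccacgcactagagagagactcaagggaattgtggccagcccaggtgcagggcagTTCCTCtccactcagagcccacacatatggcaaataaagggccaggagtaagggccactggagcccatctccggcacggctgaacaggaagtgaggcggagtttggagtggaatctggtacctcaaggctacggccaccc
Bank1: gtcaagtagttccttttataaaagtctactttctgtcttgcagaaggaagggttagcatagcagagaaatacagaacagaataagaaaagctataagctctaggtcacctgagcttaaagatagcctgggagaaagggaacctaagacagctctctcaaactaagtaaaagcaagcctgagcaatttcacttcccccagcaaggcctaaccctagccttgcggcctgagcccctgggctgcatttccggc
Fcmr: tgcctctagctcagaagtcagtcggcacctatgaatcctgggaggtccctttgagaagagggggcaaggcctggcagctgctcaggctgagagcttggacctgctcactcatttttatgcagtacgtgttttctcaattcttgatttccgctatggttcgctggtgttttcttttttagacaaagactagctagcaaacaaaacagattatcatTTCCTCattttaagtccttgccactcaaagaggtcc
The core occurred in Cd79a from 140 to 135 bases before the start and in Fcmr from 36 to 31 bases before it. It was present in 7 of 30 start regions of these genes (in Fcmr, Fcrla, Cd72, Cd79a, Siglecg, Cd37 and Ebf1) and in 23.3% of all 32851 start regions of the same length, so it was about as frequent here as elsewhere.

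Shorter windows are shown for the rarer motifs, with 20 bases on each side of the match in capitals. The octamer ATGCAAAT, through which Pou2af1 acts, was found on either strand in 1.6% of all start regions and in 2 of the 30, those of Vpreb3 (plus strand, chr10:75948235-75948282) and Blnk (minus strand, chr19:40994324-40994371). The palindromic site of Ebf1, TCCCNNGGGA, was found in 0.779% of all and in 1 of the 30, that of Cd22 (minus strand, chr7:30879048-30879097).
Vpreb3: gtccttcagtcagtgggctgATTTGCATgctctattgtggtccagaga
Blnk: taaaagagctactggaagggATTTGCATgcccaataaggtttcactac
Cd22: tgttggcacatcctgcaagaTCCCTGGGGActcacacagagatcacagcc
The letters are a description of these windows only, and no binding was measured.

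The values come from 15 arrays that were not on a common scale as deposited, with median intensities from 3.61 to 25.4, and they were brought to one distribution before log2 was taken. A log2 value of 4 is the floor, and a gene listed at 4.00 on an array was at or below it there. The arrays held the signals of the main blood cells: all 8 platelet and all 8 erythroid markers with a probe set were tested, as were 12 of 12 monocyte and 10 of 10 neutrophil markers, while the T cell marker Cd4 was at the floor on all arrays. Control probe sets for 18S ribosomal RNA averaged 11.19 ± 0.94 (log2, SD, n = 5) in vehicle, 9.97 ± 0.43 at the low dose and 9.42 ± 0.42 at the high dose. Unlike the genes, the 18S values were read from the intensities as deposited, without scaling between arrays. Their part in the differences below was not tested beyond their use as a covariate. Of the other cell types, in the order vehicle, low dose and high dose, NK cell markers averaged 6.42 ± 0.37, 5.83 ± 0.50 and 6.04 ± 0.53, neutrophil markers 6.86 ± 0.28, 6.30 ± 0.44 and 6.40 ± 0.51, and platelet markers 9.30 ± 0.60, 8.85 ± 0.17 and 8.85 ± 0.31. Erythroid markers averaged 8.98 ± 0.32, 8.94 ± 0.34 and 8.78 ± 0.52, and plasma cell markers 6.19 ± 0.21, 5.75 ± 0.52 and 5.78 ± 0.24.

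At 5 mg/kg against vehicle, none of the 29 B cell genes passed an adjusted p of 0.05 in limma (Benjamini-Hochberg over 12499 genes), where 0.088% of all tested genes did. By unadjusted p under 0.05, 4 were higher (Spib, Ms4a1, Tnfrsf13c and Cd79a), which is 13.8% of them against a background of 3.51%, and 2 were lower (Ly86 and Bank1), which is 6.9% against a background of 4.26%. No gene had its 5 arrays at 5 mg/kg entirely apart from the 5 vehicle arrays, and 2.57% of all tested genes did. The median log2 difference over the 29 was 0.05, with 15 above and 14 below 0, beside a median of -0.03 over all tested genes. The 29 genes thus lay on both sides of 0 at this dose, and they are given by role below.

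Of the genes with an unadjusted p under 0.05 at 5 mg/kg, Spib, Ms4a1 and Ly86 kept it with any 1 of the 15 arrays left out, and the other 3 did not. The 2 lower genes lost it where 18S signal was taken into account: with 18S as a covariate Ly86 differed by -0.87 ± 0.60 and Bank1 by -0.135 ± 0.385, and with vehicle replicates 1 and 2, whose 18S signal was the highest, left out they differed by -0.89 ± 0.43 and -0.35 ± 0.26. The 18S signal, not scaled between arrays, ran from 10.24 to 12.31 in vehicle and from 8.83 to 9.88 at 5 mg/kg, without overlap. A fit with 18S as a covariate therefore cannot separate it from dose. Ly86 and Bank1 also lost the unadjusted p under 0.05 with the neutrophil marker mean as a covariate, at -0.70 ± 0.36 and -0.49 ± 0.28. Spib, Ms4a1 and Tnfrsf13c kept it in these 3 fits. With the T cell marker mean as a covariate, Spib, Ms4a1, Ly86 and Bank1 kept it, while Tnfrsf13c and Cd79a did not. The number higher was 2 without vehicle replicate 1, 4 or 5 or without 5 mg/kg replicate 1, 3 or 4, and it was 7 without vehicle replicate 2. The number lower was 1 without vehicle replicate 2 or 3 or without 5 mg/kg replicate 2, 3 or 5. Without scaling between arrays 2 were higher and 0 lower.

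**Figure D1:**
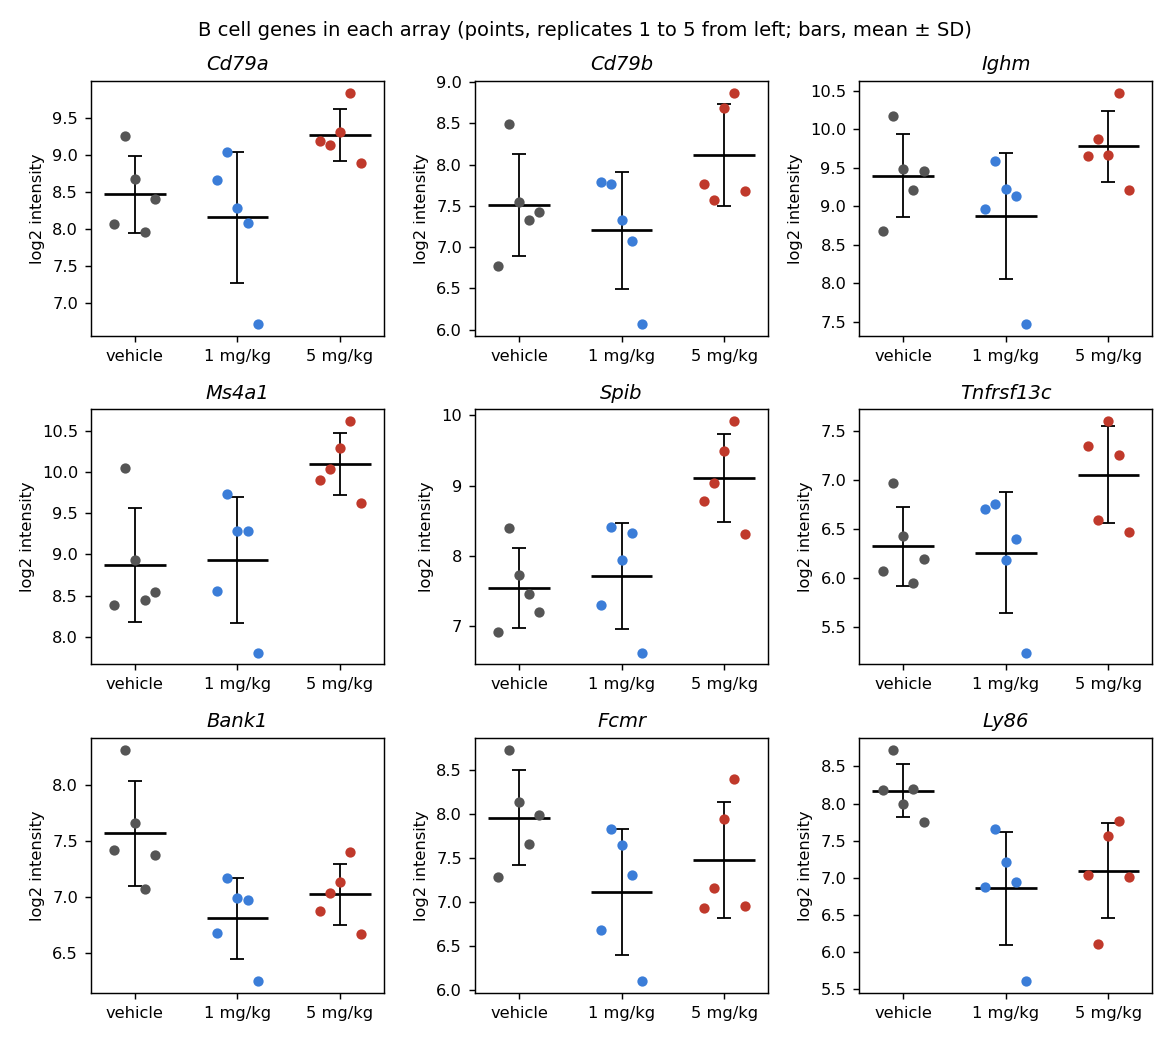
Normalised log2 intensity of 9 B cell genes in each of 15 arrays, by group (points are replicates 1 to 5 from the left, bars the mean ± SD of 5 arrays; the axes do not start at 0). Cd79a, Ms4a1, Spib and Tnfrsf13c have their highest mean at 5 mg/kg and overlap with vehicle replicate 2, while Ly86 and Bank1 have their highest mean in vehicle.

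Read from the brightest probe set of each, the antigen receptor chains were all higher on average at 5 mg/kg. Cd79a, which carries the signalling tail of the receptor, had log2 values of 8.06, 9.25, 8.67, 7.95 and 8.40 in vehicle, 8.66, 9.03, 8.29, 8.08 and 6.71 at 1 mg/kg, and 9.18, 9.13, 9.30, 9.84 and 8.88 at 5 mg/kg. All 5 arrays at 5 mg/kg were above the vehicle mean, but vehicle replicate 2 lay within their range. Its difference at 5 mg/kg was 0.80 ± 0.37 (SE, n = 5 per group), or 1.74-fold, with a limma adjusted p of 0.637. Ighm, the heavy chain of IgM, read 8.67, 10.17, 9.48, 9.21 and 9.45 in vehicle, 8.96, 9.59, 9.23, 9.12 and 7.46 at 1 mg/kg, and 9.66, 9.88, 9.67, 10.47 and 9.21 at 5 mg/kg. Its groups overlapped throughout, with a difference at 5 mg/kg of 0.38 ± 0.37 (SE, n = 5 per group). Cd79b, the partner chain of Cd79a, ran from 6.77 to 8.49 in vehicle, 6.06 to 7.79 at 1 mg/kg and 7.58 to 8.87 at 5 mg/kg, a difference at 5 mg/kg of 0.61 ± 0.38.

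The reading of Ighm depended on the probe set. It has 11 probe sets, of which 5 were tested, and the brightest and the next were close, with mean log2 values of 9.35 and 9.29. At 1 mg/kg against vehicle the first gave -0.52 ± 0.37 and the second 0.63 ± 0.52, and at 5 mg/kg they gave 0.38 ± 0.37 and 0.05 ± 0.52. The third, with a mean of 6.14, gave -1.71 ± 0.46 and -0.40 ± 0.46 in the same order, so it was lower on average at 5 mg/kg where the others were higher. The 2 brightest disagreed in sign at 1 mg/kg, so no direction is given for Ighm there. Probe sets of this locus can also read related immunoglobulin transcripts.

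Of the kinases and the adaptor, only Blnk was above the floor on all arrays. Blnk, which links the receptor to phospholipase C, read 6.45, 7.57, 6.96, 6.75 and 6.98 in vehicle, 6.44, 7.26, 7.12, 6.60 and 6.22 at 1 mg/kg, and 7.46, 7.41, 7.27, 7.88 and 6.92 at 5 mg/kg. Its groups overlapped, with a difference at 5 mg/kg of 0.45 ± 0.26. Btk, the Tec family kinase mutated in X-linked agammaglobulinaemia, read 4.00, 6.42, 4.89, 5.70 and 5.29 in vehicle, 4.00, 4.00, 4.64, 5.18 and 4.00 at 1 mg/kg, and 4.51, 4.88, 5.26, 5.46 and 4.00 at 5 mg/kg. It was above the floor on 4, 2 and 4 arrays of these groups, so its means are set in part by the floor. Blk, a Src family kinase largely restricted to B cells, was above the floor on 4, 2 and 5 arrays, with means of 5.39, 5.05 and 6.03 in the same order.

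Among the co-receptors and surface regulators, Ms4a1 stood out on the higher side. Ms4a1 encodes CD20, the target of rituximab, and read 8.39, 10.05, 8.93, 8.45 and 8.55 in vehicle, 8.55, 9.74, 9.29, 9.29 and 7.80 at 1 mg/kg, and 9.91, 10.04, 10.30, 10.62 and 9.63 at 5 mg/kg. Only vehicle replicate 2 reached the range of the 5 mg/kg arrays. The difference at 5 mg/kg was 1.23 ± 0.37 (SE, n = 5 per group), or 2.34-fold, with a 95% interval of 0.44 to 2.02 and an adjusted p of 0.304. A second probe set of Ms4a1 gave 1.11 ± 0.34. Tnfrsf13c, the BAFF receptor, read 6.08, 6.98, 6.43, 5.96 and 6.20 in vehicle, 6.71, 6.76, 6.19, 6.40 and 5.24 at 1 mg/kg, and 7.35, 6.60, 7.61, 7.26 and 6.47 at 5 mg/kg. All 5 arrays at 5 mg/kg were above the vehicle mean, with a difference of 0.73 ± 0.31 and an adjusted p of 0.577.

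Bank1 and Fcmr were lower on average at both doses. Bank1, a scaffold that couples Lyn to calcium release, read 7.42, 8.32, 7.66, 7.07 and 7.37 in vehicle, 6.68, 7.17, 6.99, 6.98 and 6.25 at 1 mg/kg, and 6.88, 7.03, 7.14, 7.40 and 6.67 at 5 mg/kg. The arrays of either dose were all below the vehicle mean, and 1 array at 1 mg/kg and 2 at 5 mg/kg lay above the lowest vehicle array. The differences were -0.76 ± 0.25 at 1 mg/kg (adjusted p = 0.694) and -0.54 ± 0.25 at 5 mg/kg (adjusted p = 0.614). With 18S signal as a covariate the second shrank to -0.135, and Bank1 had no unadjusted p under 0.05 at either dose. Fcmr, the receptor for the Fc part of IgM, read 7.28, 8.73, 8.13, 7.65 and 7.99 in vehicle, 6.69, 7.83, 7.64, 7.31 and 6.10 at 1 mg/kg, and 6.93, 7.16, 7.94, 8.39 and 6.95 at 5 mg/kg. Its groups overlapped at both doses, with differences of -0.84 ± 0.38 and -0.48 ± 0.38.

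The other surface genes gave no unadjusted p under 0.05 at 5 mg/kg. Cr2, the complement receptor CD21, read 5.08, 5.05, 5.11, 4.59 and 4.34 in vehicle, 4.50, 4.59, 4.00, 4.00 and 4.00 at 1 mg/kg, and 4.69, 4.13, 4.07, 5.83 and 4.66 at 5 mg/kg. It was above the floor on all 5 arrays of vehicle and of 5 mg/kg and on 2 at 1 mg/kg. Cd37, Cd83, Cd22 and Fcer2a, which encode a tetraspanin, an activation marker, an inhibitory lectin and the low-affinity IgE receptor, differed at 5 mg/kg by 0.33, 0.24, 0.23 and 0.19, each by less than 1 SE. Fcrla, an Fc receptor-like protein kept inside the cell, differed by -0.26 ± 0.48. The inhibitory lectin Siglecg and the inhibitory co-receptor Cd72 differed at 5 mg/kg by -0.001 ± 0.245 and -0.0004 ± 0.1723, with 95% intervals of -0.52 to 0.52 and -0.37 to 0.37. Cd24a, which erythroid cells and granulocytes also express, lay between 12.93 and 13.20 on all 15 arrays, at the top of the scale, where quantile normalisation gives arrays shared values, so its spread is not read here. With 75th percentile scaling it differed at 5 mg/kg by -0.22 ± 0.26, and its dimmest probe set gave 0.40 ± 0.27 at 1 mg/kg against vehicle and -0.67 ± 0.27 between the doses.

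Of the Toll-like receptor relatives, Ly86 was the B cell gene lowest relative to vehicle. Ly86, or MD-1, is the partner that brings the receptor homologue Cd180 to the cell surface, and it is also expressed by monocytes and dendritic cells. It read 8.18, 8.73, 7.9986, 8.19 and 7.76 in vehicle, 6.87, 7.66, 7.21, 6.94 and 5.60 at 1 mg/kg, and 7.03, 6.11, 7.56, 7.77 and 7.01 at 5 mg/kg. At 1 mg/kg all 5 arrays lay below all 5 vehicle arrays, and at 5 mg/kg 1 array, replicate 4, reached the lowest vehicle array. The differences were -1.31 ± 0.36 at 1 mg/kg (adjusted p = 0.477) and -1.08 ± 0.36 at 5 mg/kg (adjusted p = 0.377). Cd180 itself was close to the floor, with group means of 4.62, 4.49 and 4.29.

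The monocyte markers were, like Ly86, lower on average than vehicle at both doses. Their mean log2 value was 7.31 ± 0.34 (SD, n = 5; range 6.86 to 7.71) in vehicle, 6.62 ± 0.26 (6.32 to 7.003) at 1 mg/kg and 6.16 ± 0.12 (6.08 to 6.37) at 5 mg/kg, and none of the 12 was at the floor on all arrays. All 12 were lower on average at 5 mg/kg, and 1 of them, Clec4a3, fell by limma (-2.25 ± 0.30, adjusted p = 0.0043). Between the doses the median difference of these markers was -0.41, with 9 of the 12 lower at 5 mg/kg. Ly86 did not go further down there, with a difference of 0.24 ± 0.36. The 6 tested markers of plasmacytoid and dendritic cells averaged 5.87 ± 0.28 in vehicle, 5.55 ± 0.24 at the low dose and 5.41 ± 0.17 at the high dose, with Bst2, Flt3 and Xcr1 at the floor on all arrays. Their part in the values of Ly86 was not tested.

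Of the transcription factors, Spib had the largest difference of any B cell gene here. Spib encodes an Ets factor close to PU.1 that B cells and plasmacytoid dendritic cells use, and read 6.91, 8.40, 7.74, 7.47 and 7.20 in vehicle, 7.31, 8.41, 7.94, 8.33 and 6.62 at 1 mg/kg, and 8.78, 9.03, 9.50, 9.92 and 8.32 at 5 mg/kg. The highest vehicle array, replicate 2, lay just above the lowest array at 5 mg/kg, and otherwise the groups did not overlap. The difference at 5 mg/kg was 1.57 ± 0.38 (SE, n = 5 per group), or 2.96-fold, with a 95% interval of 0.75 to 2.38, an unadjusted limma p of 0.000871 and an adjusted p of 0.152. Of the 6 plasmacytoid and dendritic cell markers given above, 5 were lower on average at 5 mg/kg. The other, Irf7, was higher, by 0.77 ± 0.45. Their part in the values of Spib was not tested.

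The other factors gave smaller values. Pou2af1, the octamer co-activator, read 7.05, 8.30, 7.48, 7.30 and 7.77 in vehicle, 7.28, 7.74, 6.50, 7.47 and 5.84 at 1 mg/kg, and 7.63, 7.70, 7.75, 8.40 and 7.29 at 5 mg/kg. Its groups overlapped, with a difference at 5 mg/kg of 0.18 ± 0.35. Bach2, a repressor that holds B cells back from becoming plasma cells, differed by -0.12 ± 0.19. At 1 mg/kg it differed by -0.10 ± 0.19, where its next probe set gave -1.01 ± 0.34 and its dimmest -0.49 ± 0.29. At 5 mg/kg these gave -0.29 ± 0.34 and -0.41 ± 0.29, and between the doses 0.73 ± 0.34 and 0.08 ± 0.29. Pax5, which commits cells to the lineage, was above the floor on 3, 4 and 4 arrays of vehicle, 1 mg/kg and 5 mg/kg, and differed by 0.49 ± 0.38 at 5 mg/kg. Ebf1, which acts with Pax5, was above it on 4, 3 and 2 arrays and differed by -0.70 ± 0.58, while its next probe set gave 0.28 ± 0.28, so no direction is given for it.

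The last 3 genes were Vpreb3, a relative of the surrogate light chain, Ralgps2, a Ral exchange factor, and Syvn1, a ubiquitin ligase of the endoplasmic reticulum. They differed at 5 mg/kg by -0.29 ± 0.26, 0.05 ± 0.22 and -0.04 ± 0.46. A second probe set of Syvn1 gave 0.82 ± 0.28. Over the 29 genes, 12 had more than 1 probe set, and of the 18 further probe sets tested 12 had the same sign at 5 mg/kg as the one chosen.

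**Figure D2:**
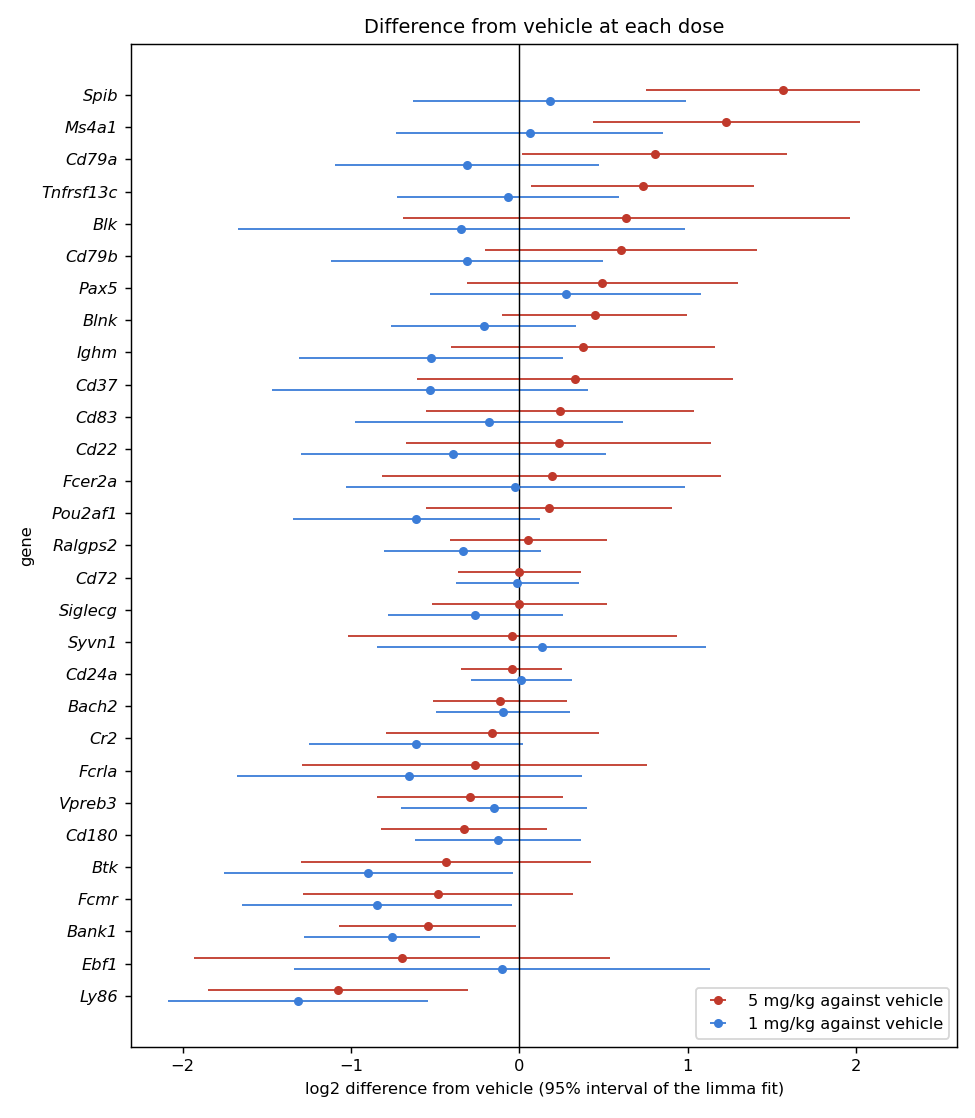
Log2 difference from vehicle of each of 29 B cell genes at 5 mg/kg (red) and 1 mg/kg (blue), with the 95% interval of the limma fit on 5 arrays per group, ordered by the difference at 5 mg/kg. Spib and Ms4a1 lie above 0 at 5 mg/kg and near 0 at 1 mg/kg, Ly86 and Bank1 lie below 0 at both doses, and none of the genes passed an adjusted p of 0.05.

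At 1 mg/kg against vehicle, none of the 29 passed an adjusted p of 0.05 in limma, where 0.008% of all tested genes did. By unadjusted p under 0.05, 0 were higher and 4 were lower (Ly86, Bank1, Fcmr and Btk), against backgrounds of 1.97% and 4.06%. Ly86 was the 1 gene whose groups did not overlap, which is 3.45% of the 29, and 0.904% of all tested genes had no overlap. The median log2 difference over the 29 was -0.26, with 24 genes below 0, beside a median of -0.02 over all tested genes, of which 47.0% were above 0. Single arrays moved that median: it was -0.08 without vehicle replicate 2 and -0.12 without 1 mg/kg replicate 5. The number lower by unadjusted p was 2 without either of these arrays. It was also 2 with 18S signal as a covariate (Siglecg and Ly86), and 1 without scaling between arrays (Ly86). It was 5, with Bach2 added, with the mean of probe sets or with the next brightest probe set of each gene that has one. The median was -0.04 with the neutrophil marker mean as a covariate and -0.08 with the T cell marker mean. Every marker list of other cell types also had a median below 0 at 1 mg/kg. It was -0.25 for T cells, -0.59 for NK cells, -0.605 for monocytes, -0.52 for neutrophils and -0.48 for platelets. It was -0.32 for plasmacytoid and dendritic cells, -0.14 for erythroid cells and -0.41 for plasma cells.

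At 5 mg/kg against 1 mg/kg, none of the 29 passed an adjusted p of 0.05 in limma, and 0% of all tested genes did. By unadjusted p under 0.05, 8 were higher at 5 mg/kg (Spib, Ms4a1, Cd79a, Tnfrsf13c, Blnk, Ighm, Cd79b and Pou2af1), which is 27.6% against a background of 5.26%, and 0 were lower, against 2.63%. Ighm was counted by its brightest probe set (0.90 ± 0.37), and the next gave -0.58 ± 0.52, so no direction is given for it here either. With the next brightest probe set of each gene that has one, Ighm left this list and Syvn1 entered it. No gene had separate groups, and 1.16% of all tested genes did. The median over the 29 was 0.39, with 23 genes above 0, beside -0.02 over all tested genes. Spib differed by 1.39 ± 0.38 (adjusted p = 0.486), Ms4a1 by 1.17 ± 0.37 and Cd79a by 1.11 ± 0.37 (adjusted p = 0.491 each). The 3 comparisons share arrays, so the 1 mg/kg arrays that were low against vehicle are the same that were exceeded here.

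The number of genes with an unadjusted p under 0.05 between the doses depended on single arrays. There were 3 such genes without 1 mg/kg replicate 5, and 4 where the array left out was 5 mg/kg replicate 3 or replicate 4. The T cell markers moved the same way: their mean over 10 tested genes was 6.96 ± 0.25 (SD, n = 5; range 6.80 to 7.41) in vehicle, 6.66 ± 0.30 (6.33 to 7.12) at 1 mg/kg and 7.18 ± 0.40 (6.68 to 7.61) at 5 mg/kg. With that mean as a covariate, 0 of the 29 had an unadjusted p under 0.05 between the doses and their median difference was 0.11.

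The genes that blood expresses mainly in B cells and those that other blood cells also express gave similar orders of the groups. The 16 mainly of B cells averaged 6.72 ± 0.44 (SD, n = 5) in vehicle, 6.39 ± 0.51 at the low dose and 6.91 ± 0.33 at the high dose. The 13 that other cells share averaged 6.93 ± 0.37, 6.65 ± 0.27 and 6.98 ± 0.19. The differences between group means were of the size of these SDs.

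**Figure D3:**
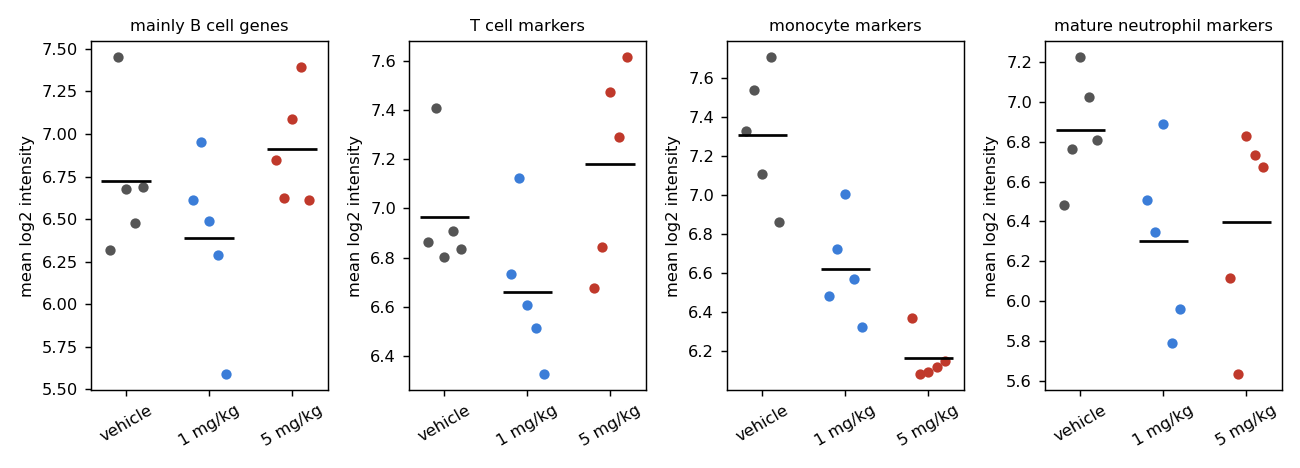
Mean log2 intensity per array of the 16 genes found mainly in B cells, of 10 T cell, 12 monocyte and 10 mature neutrophil markers, by group (points are replicates 1 to 5 from the left, lines the group means; the axes do not start at 0). The B and T cell means are lowest at 1 mg/kg and highest at 5 mg/kg, and the monocyte mean is lower at each dose.

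The B cell genes varied together among mice of the same group. Vehicle replicate 2 was the highest of its group for 21 of the 29 genes (72.4%, against 22.6% of all tested genes) and replicate 1 the lowest for 18 (62.1%, against 30.4%). At 1 mg/kg, replicate 2 was the highest for 17 (58.6%, against 16.4%) and replicate 5 the lowest for 15 (51.7%, against 14.4%). At 5 mg/kg, replicate 4 was the highest for 18 (62.1%, against 18.9%) and replicate 5 the lowest for 13 (44.8%, against 14.2%). Where arrays of a group tied, as at the floor, the first was counted, for the B cell genes and all tested genes alike. In vehicle, replicate 1 shared its lowest value with another array for Fcer2a, Cd83 and Pax5. These counts describe the arrays, and genes of one cell type are not independent of each other. The T cell marker mean was also highest in vehicle replicate 2 (7.41) and 1 mg/kg replicate 2 (7.12) and lowest in 1 mg/kg replicate 5 (6.33). Its lowest vehicle array was replicate 3 (6.80). At 5 mg/kg it was highest in replicate 5 (7.61) and lowest in replicate 1 (6.68). The spread between mice is wide beside the differences between groups, and it is part of the SE of every gene above.

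**Figure D4:**
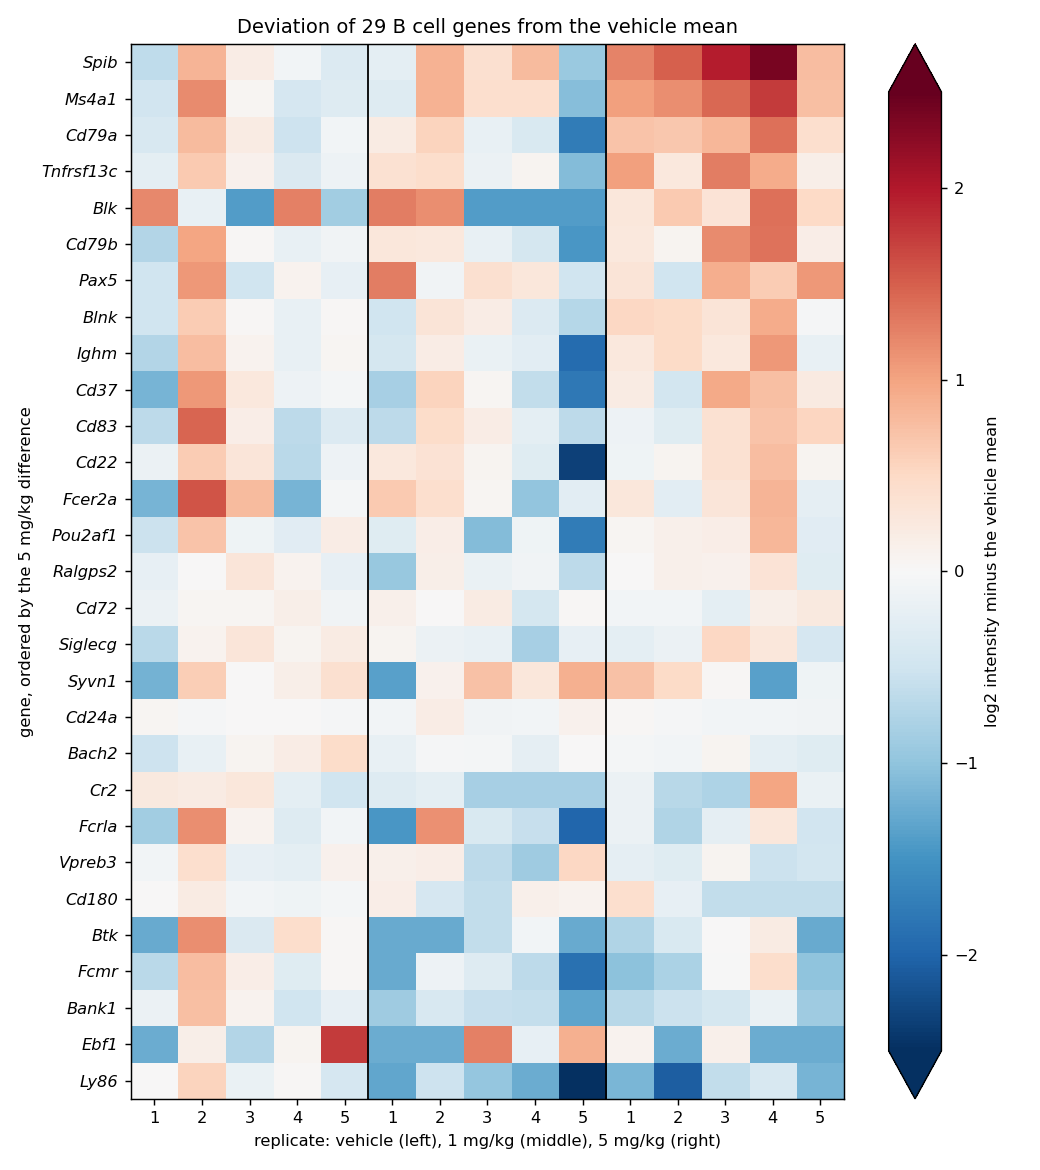
Log2 intensity of each of 29 B cell genes minus its vehicle mean (colour, clipped at the ends of the scale) in 15 arrays, in blocks of 5 for vehicle, 1 mg/kg and 5 mg/kg, with genes ordered by the difference at 5 mg/kg. Columns of one colour, such as vehicle replicate 2 (high) and 1 mg/kg replicate 5 (low), are arrays where most of the genes lie on one side.

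As the genes varied together between mice, each was also set against the mean of Cd79a, Cd79b and Ighm on the same array, a step added after the values were seen. Relative to that mean, Spib and Ms4a1 were higher at 5 mg/kg with no overlap with vehicle, which is 6.9% of the 29, and 0.04% of all tested genes were. Bank1, Btk, Fcmr, Fcrla, Ly86, Pou2af1 and Vpreb3 were lower with no overlap, which is 24.1%, and 2.94% of all tested genes were. That background depended on single arrays: it was 23.7% without vehicle replicate 2, where 10 of the 29 were lower, 8.62% without 5 mg/kg replicate 3, where 6 were, and 8.36% without 5 mg/kg replicate 5, where 8 were. At 1 mg/kg, Fcmr and Ly86 lay below vehicle with no overlap on this scale, which is 6.9% of the 29 against 0.032% of all tested genes, and 0 lay above it, against 0.112%. That background too was higher, 0.307% to 0.323%, without vehicle replicate 3, 1 mg/kg replicate 5 or 5 mg/kg replicate 3. Spib and Ms4a1 lay above vehicle once 1 mg/kg replicate 1 was left out. The receptor chains are themselves higher on average at 5 mg/kg, so a gene that stays level is lower on this scale. A gene that varies with the receptor chains between mice has less spread on this scale than one that does not, so these 2 backgrounds are not of like genes.

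On this scale, with the vehicle mean set to 0, Spib read -0.31 to 0.22 in vehicle, -0.25 to 1.15 at 1 mg/kg and 0.64 to 1.20 at 5 mg/kg. Ms4a1 read -0.29 to 0.34 in vehicle, -0.33 to 0.78 at 1 mg/kg and 0.48 to 0.77 at 5 mg/kg, where the gap to vehicle is small beside either range. Fcmr read -0.07 to 0.07 in vehicle, -1.28 to -0.14 at 1 mg/kg and -1.44 to -0.78 at 5 mg/kg. Fcmr thus followed the receptor chains closely among vehicle mice and lay below its vehicle range in all mice of both doses. At 1 mg/kg the gap to vehicle was small, from -0.14 to -0.07, and Fcmr was no longer apart there with the mean of probe sets. Bank1 read -0.20 to 0.48 in vehicle, -0.90 to 0.39 at 1 mg/kg and -1.44 to -0.94 at 5 mg/kg. Ly86 read -0.38 to 0.63 in vehicle, -1.31 to -0.78 at 1 mg/kg and -2.47 to -1.29 at 5 mg/kg, so for it too both doses lay apart from vehicle.

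**Figure D5:**
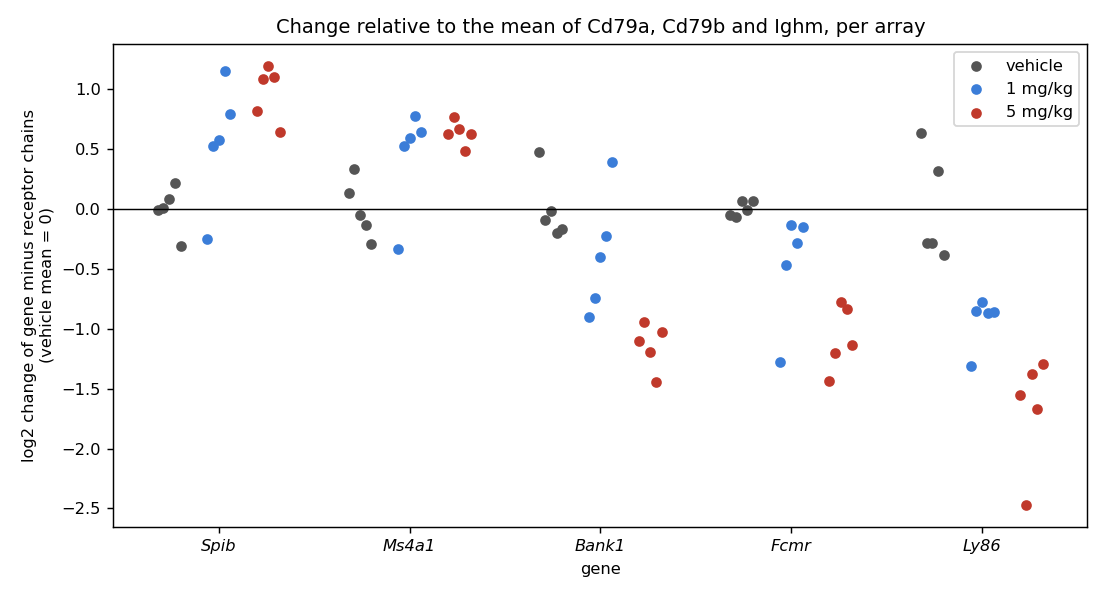
Log2 value of 5 B cell genes minus the mean of Cd79a, Cd79b and Ighm on the same array, with the vehicle mean of each gene set to 0 (1 point per array, 5 per group). At 5 mg/kg all points of Spib and Ms4a1 lie above their vehicle points, and all points of Bank1, Fcmr and Ly86 lie below theirs.

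With the receptor chain mean as a covariate in limma, Ly86 was lower at 5 mg/kg by -1.55 ± 0.28 (adjusted p = 0.0469), and no other B cell gene passed, where 0.144% of all tested genes did. Spib differed by 1.02 ± 0.26 (adjusted p = 0.199), Fcmr by -1.03 ± 0.25 (adjusted p = 0.165), Bank1 by -0.86 ± 0.19 (adjusted p = 0.134) and Ms4a1 by 0.68 ± 0.23 (adjusted p = 0.485). The covariate, added after the values were seen, was itself higher on average at 5 mg/kg (9.05 ± 0.44, SD, n = 5) than in vehicle (8.46 ± 0.55). This fit therefore cannot fully separate the covariate from dose. Without it Ly86 differed by -1.08 ± 0.36 (adjusted p = 0.377). The 9 genes apart from vehicle on this scale were the same with Cd79a and Cd79b alone as the reference. With the next brightest Ighm probe set in the mean, Ly86 was the 1 gene left. Leaving out vehicle replicate 3 or 5 mg/kg replicate 3 changes the choice of Ighm probe set to that one: Spib and Ly86 were left without the first, and without the second Spib, Ms4a1 and Btk were lost. With the probe sets kept, all 9 remained without either array. Of these 9 genes, Ly86 kept its place under all 22 alternatives tried.

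The wider B cell pathways, taken as lists of other genes, held no gene past an adjusted p of 0.05 at 5 mg/kg against vehicle in limma. Of 24 tested genes of antigen receptor signalling, 10 were above and 14 below 0, with a median of -0.04, and 1 in each direction had an unadjusted p under 0.05. There, Grb2, an adaptor common to many receptors, differed by 0.73 ± 0.17 (adjusted p = 0.13), the Ras exchange factor Rasgrp3 by -0.80 ± 0.21 (adjusted p = 0.206) and the NF-kB protease Malt1 by 0.63 ± 0.35. Of 20 transcription factors of the lineage, 9 were above and 11 below 0, and 1, Pou2f2, had an unadjusted p under 0.05. Pou2f2, the octamer factor that Pou2af1 binds, differed by 0.80 ± 0.26 (adjusted p = 0.357), Klf2, a factor of resting lymphocytes, by 0.52 ± 0.25 and the inhibitor Id2 by -0.46 ± 0.27.

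Of 15 receptors for survival, homing and help, 6 were above and 9 below 0, with a median of -0.14, and 2, Ly96 and Ccr6, had an unadjusted p under 0.05. Ly96, or MD-2, a relative of Ly86 that partners the receptor for lipopolysaccharide and is also a monocyte gene, differed by -1.13 ± 0.23 (adjusted p = 0.0809). The chemokine receptor Ccr6 differed by -0.89 ± 0.27 and Cxcr4 by 0.46 ± 0.26. Of 9 genes of immunoglobulin and antibody secretion, 3 were above and 6 below 0, and 1 higher and 2 lower had an unadjusted p under 0.05. The light chain segment Iglv1, which related segments can share signal with, differed by -1.36 ± 0.30 (adjusted p = 0.108), the plasma cell chaperone Mzb1 by -0.90 ± 0.28 and the general chaperone Hspa5 by 1.05 ± 0.40. In each of these lists the share above 0 was between 33.3% and 45%, beside 46.6% of all tested genes. Between the doses, 19 of the 24 signalling genes and 13 of the 20 transcription factors were above 0 at 5 mg/kg, with medians of 0.13 and 0.16, beside 7 of the 15 receptors and 4 of the 9 immunoglobulin genes.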

How the data were processed

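Total RNA of whole blood was measured in 15 mice on 1 Affymetrix 3′ array each, from 200 ng of RNA per the labels' protocols. The authors deposited 1 table of intensity values per probe set on a linear scale, and the software, summary method and any scaling behind it are not given in the sources used here. First the 64 control probe sets were left out, the rest were quantile normalised, anything below a floor of 16 was raised to it, and log2 of these deposited intensities was used throughout. Of 45101 probe sets, 34945 were annotated with 1 gene, by a table that can be old. Genes above the floor on at least 5 arrays were tested.

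Groups follow the labels, with 5 separate mice each. The test was limma (version 3.58.1, R 4.3.3): lmFit on all 15 arrays with group means, eBayes, two-sided, Benjamini-Hochberg over 12499 genes, threshold 0.05. The code was tested on simulated data. A fold is 2 to the power of a log2 difference. The median SE at 5 mg/kg was 0.289, which the number of arrays limits.

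The B cell genes, their roles, the pathway lists and the marker lists were chosen with earlier results of these data known. Values on every array were given for genes past the threshold, for genes whose groups do not overlap and for up to 6 of smallest p in each comparison, and differences for up to 3 pathway genes per list. The 5 genes shown against the receptor chains were chosen after their values were seen. Alternatives changed the scaling, floor, filter, probe set, arrays, weights, block and covariates.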

Additional observations from a re-analysis of the deposited data

Results flagged for a closer look

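Of 87 sets of 5 arrays (29 B cell genes in 3 groups), 3 held an array whose gap to its nearest neighbour was a large part of the range of the group, and chance alone gives about 1 in 20. Cd22 was lowest in 1 mg/kg replicate 5, at a log2 value of 4.58, with the nearest array at 6.61. Siglecg was lowest in vehicle replicate 1, at 5.80, with the nearest at 6.54. Cd72 was lowest in 1 mg/kg replicate 4, at 7.87, with the nearest at 8.33.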

How the results depend on the processing

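Under 33 alternatives none of the 29 B cell genes passed the threshold at 1 mg/kg or between the doses. At 5 mg/kg against vehicle 1 gene, Ly86, passed with the receptor chain mean as a covariate, and 1 gene, Ms4a1 (1.52, adjusted p = 0.0379), passed with vehicle replicate 2 and 1 mg/kg replicate 5 left out together. Both alternatives were chosen after seeing the data. Over all alternatives the adjusted p of Spib ran from 0.0573 to 0.9996. Without scaling, the median of all tested genes at 5 mg/kg was 0.10 and that of the B cell genes 0.18. Replicate numbers did not pair the mice (correlations of same-numbered arrays from -0.28 to 0.35). With a replicate block, 0 of the B cell genes and 9 of all tested genes passed at 5 mg/kg, and the median of the B cell genes stayed 0.053. The count of all genes past the threshold at 5 mg/kg went from 11 to 65 with array weights, 45 with a floor of 32, 33 with the mean of probe sets, 22 with a filter of 1 array, 22 without 1 mg/kg replicate 5, 19 without 1 mg/kg replicate 1, 18 with the receptor covariate and also with the 2 arrays left out, 17 with no filter, 17 with only the compared groups, 3 without the 2 vehicle arrays of highest 18S, 1 without scaling and 0 with 18S as a covariate. Unadjusted calls at 5 mg/kg ran from 2 to 7 higher and 0 to 4 lower. With the receptor covariate the median between the doses was -0.058, which is the value of Ighm, itself part of that covariate. The number of genes apart from vehicle relative to the receptor chains, 9, was 1 with the next Ighm probe set and from 2 to 12 with single arrays left out, and 9 to 13 with the probe sets kept. Of estimates at least 1 SE from 0, 4 of 526, 7 of 361 and 15 of 559 changed sign at 5 mg/kg, at 1 mg/kg and between the doses. At 5 mg/kg these were Cd180 with 18S (0.0318), Ighm with the receptor covariate (-0.207) and without single arrays (range -0.371 to 0.598), and Ebf1 with the next probe set (0.279). At 1 mg/kg they were Siglecg (0.038) and Cd37 (0.0584) with the neutrophil covariate, Ighm (0.0211) and Cd37 (0.0555) with the 2 arrays left out, and Ighm with the next probe set (0.629) and without single arrays (-0.703 to 0.628). Between the doses they were Ebf1 with the mean of probe sets (0.0682), Cd22 (-0.0198) and Cd83 (-0.302) with the T cell covariate, and Ighm (-0.576) and Ebf1 (0.397) with the next probe set. With the receptor covariate they were Cd79b (-0.0724), Ighm (-0.058), Btk (-0.128), Cd22 (-0.452), Siglecg (-0.004), Cd37 (-0.185), Cd83 (-0.287) and Pou2af1 (-0.0442), and without single arrays Ighm ran from -0.5753 to 1.08. Cd79a, Cd79b and Ighm make up the receptor covariate. The sign changes of Cd79b and Ighm in that fit, here and at 5 mg/kg, are therefore not read. With single arrays left out, the sign of Ighm turned only without vehicle replicate 3 or 5 mg/kg replicate 3, which change its probe set, and at 5 mg/kg only without the first; the other causes were not tested.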
